A study of Mus musculus with 6 samples.

Results

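The 7 genes described here encode myosin heavy chains of skeletal muscle: the adult fast chains Myh4, Myh1 and Myh2, the adult slow chain Myh7, the slow-tonic chain Myh7b, and the developmental chains Myh3 and Myh8. They were chosen by name, as the genes with these symbols in the array's annotation, and are 7 of the 19752 genes measured. Each had 1 probe set, 10377117 for Myh4, 10377087 for Myh1, 10377055 for Myh2, 10419934 for Myh7, 10477673 for Myh7b, 10377018 for Myh3 and 10377148 for Myh8. All 6 RNA samples came from skeletal muscle of mdx mice, a dystrophin-deficient model of Duchenne muscular dystrophy with repeated loss and repair of fibres, so both treatment groups share that background. Mice of the anti-CD25 group (3 samples) received the monoclonal antibody PC61 against CD25, a receptor chain abundant on regulatory T cells, and mice of the rat IgG group (3 samples) received rat IgG. The study's title gives the question as the effect of depleting regulatory T cells. Injections were given 2 times, on days 17 and 20 of age. The series' design puts dissection 7 days after the second of these, on day 27, whereas every sample is labelled as 6 weeks old, which is day 42. The labels do not name the muscle, and do not state that each sample is its own animal; the p-values therefore reflect only the spread among these samples, which may be technical.

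Myosin heavy chain is the motor protein of the thick filament. Its isoform largely sets how fast a fibre contracts, from type I fibres with the slow chain through type IIa and IIx to type IIb. Embryonic and neonatal chains are made in developing muscle, are replaced after birth, and appear again in fibres that regenerate after damage, which makes them markers of regeneration in dystrophic muscle. In the mouse, the genes Myh3, Myh2, Myh1, Myh4 and Myh8 lie in this order in a cluster on chromosome 11, while Myh7 is on chromosome 14 and Myh7b on chromosome 2.

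The start regions are shown because the cluster genes are close relatives whose probe sets differ here in brightness and in spread. RefSeq windows of 250 bases before the annotated start (build GRCm38.p6) were matched by symbol for 7 of 7 members. A run of 14 bases, TTCTAATTATATCC, stood in the windows of Myh1, Myh2, Myh4 and Myh8, on the same strand in each. Both strands of all 32851 RefSeq mouse windows were searched, and 4 of them (0.012%) held it, which are those of these 4 genes. The run was picked as the longest that these 4 windows share, so their 4 matches follow from that choice. It began 160 bases before the start of Myh1, 125 before that of Myh2, 158 before that of Myh4 and 54 before that of Myh8. The letters were not in the windows of Myh3, Myh7 and Myh7b. In the sequences below, written 5′ to 3′ on the gene's strand, capitals mark this run and each TATAAA on the printed strand.
Myh3, embryonic, chr11:67078050-67078299, plus strand: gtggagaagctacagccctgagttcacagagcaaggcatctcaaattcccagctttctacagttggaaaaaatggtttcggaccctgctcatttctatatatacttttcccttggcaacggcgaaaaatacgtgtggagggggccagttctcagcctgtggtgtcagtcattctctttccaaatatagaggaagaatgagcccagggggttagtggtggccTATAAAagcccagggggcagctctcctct
Myh8, neonatal, chr11:67276874-67277123, plus strand: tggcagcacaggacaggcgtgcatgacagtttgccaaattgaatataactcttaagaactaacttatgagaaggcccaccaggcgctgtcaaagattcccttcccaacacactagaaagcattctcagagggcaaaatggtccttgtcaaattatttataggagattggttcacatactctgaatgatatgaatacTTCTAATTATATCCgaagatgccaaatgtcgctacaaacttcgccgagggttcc
Myh4, adult type IIb, chr11:67237562-67237811, plus strand: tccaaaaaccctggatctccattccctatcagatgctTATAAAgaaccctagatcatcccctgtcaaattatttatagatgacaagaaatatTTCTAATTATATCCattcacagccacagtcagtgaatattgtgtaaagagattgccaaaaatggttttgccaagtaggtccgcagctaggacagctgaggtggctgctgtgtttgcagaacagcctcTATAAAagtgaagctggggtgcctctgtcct
Myh1, adult type IIx, chr11:67199852-67200101, plus strand: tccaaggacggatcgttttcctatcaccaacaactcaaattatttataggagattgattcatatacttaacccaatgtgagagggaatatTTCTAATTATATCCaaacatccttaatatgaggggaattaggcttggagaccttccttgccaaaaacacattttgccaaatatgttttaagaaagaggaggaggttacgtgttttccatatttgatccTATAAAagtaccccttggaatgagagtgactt
Myh7, adult slow, first of 2 annotated starts, chr14:54994627-54994876, minus strand: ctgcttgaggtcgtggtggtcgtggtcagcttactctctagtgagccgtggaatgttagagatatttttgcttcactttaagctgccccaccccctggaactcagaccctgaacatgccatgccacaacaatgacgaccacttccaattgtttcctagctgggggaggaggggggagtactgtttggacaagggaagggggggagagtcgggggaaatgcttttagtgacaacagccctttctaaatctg

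The developmental gene Myh8 shared its longest run with the adult gene Myh1, the 22 bases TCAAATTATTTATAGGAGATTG, whereas the longest run that any pair of windows with Myh3 shared was 11 bases, with Myh4. The MEF2 consensus, a site of the myocyte enhancer factors, was found in the windows of Myh1, Myh4 and Myh8 and in 2.919% of all windows, on either strand. The match reads TTATTTATAG in each of the 3, and it overlaps a TATAAA of the other strand. The E-box, CANNTG, was present in 5 of 7 members but also in 66.217% of all windows. The CArG box was found in the Myh4 window and in 1.467% of all windows. TATAAA, on either strand, was in 4 of 7 members and in 12.368% of all windows; it lay 29 bases before the start of Myh3, 32 before that of Myh1 and 31 before that of Myh4. These matches describe the letters and say nothing of what is bound there.

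The samples are labelled skeletal muscle, and the fibre genes Ckm, Acta1, Des, Ttn, Mb and Dmd were all measured, with means between 9.38 and 13.79 log2 units with anti-CD25 and between 9.43 and 13.80 with rat IgG. The 5 heart genes Nppa, Nppb, Tnni3, Myl7 and Myh6 had means between 5.96 and 7.00 with anti-CD25 and between 6.22 and 7.07 with rat IgG. Every animal is labelled male, but Xist, the RNA of the inactive X chromosome, was high on anti-CD25 1 and 2 and rat IgG 1 and 2 (11.77 to 11.94) and low on anti-CD25 3 and rat IgG 3 (5.48 to 5.49), and the Y-linked Kdm5d, Eif2s3y and Uty went the other way. A second division ran through the dim end of the arrays, where the lower quartile of intensity was 56.5 to 57.7 on anti-CD25 3 and rat IgG 1 and 2, and 51.2 to 51.9 on anti-CD25 1 and 2 and rat IgG 3. Arrays correlated across genes at 0.991 to 0.996 within groups and at 0.992 to 0.995 between them. Immediate early and handling genes stood high on rat IgG 3, where their mean was 0.59 above the 6-array mean. Il2ra, the gene of the antibody's target, lay at 5.53 to 5.76 with anti-CD25 and at 5.57 to 5.73 with rat IgG. Foxp3, a gene of regulatory T cells, lay at 6.41 to 6.61 with anti-CD25 and at 6.43 to 6.69 with rat IgG. The groups overlapped, with a Foxp3 difference of -0.092 (SE 0.099), and 62.4% of all genes were brighter on average.

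No myosin heavy chain was found to differ between the treatments beyond the spread between arrays. Differences are anti-CD25 minus rat IgG in log2 intensity, from limma over all 19752 genes with Benjamini-Hochberg adjustment. Of the 7 members, 0 passed an adjusted p of 0.05, where 0% of all genes did, and 0 had an unadjusted p under 0.05, where 3.98% of all genes did in the lower direction and 2.3% in the higher. A test against a 1.2-fold change (limma's treat) also called 0 genes. The groups overlapped for each of the 7, and 6 members were lower and 1 higher, with a median of -0.080. That median was -0.017 with rat IgG 1 left out, -0.045 with rat IgG 2 out, -0.043 with anti-CD25 3 out and -0.18 with rat IgG 3 out. Across all genes 58.9% were lower, with a median of -0.026, and among genes brighter than the median gene 45.9% were lower, with a median of 0.011. The members fall into a flat set, Myh4, Myh1, Myh2 and Myh7b, which spanned 0.038 to 0.32 log2 units over the 6 arrays, and a variable set, Myh7, Myh3 and Myh8, which spanned 1.5, 1.02 and 0.69.

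**Figure D1:**
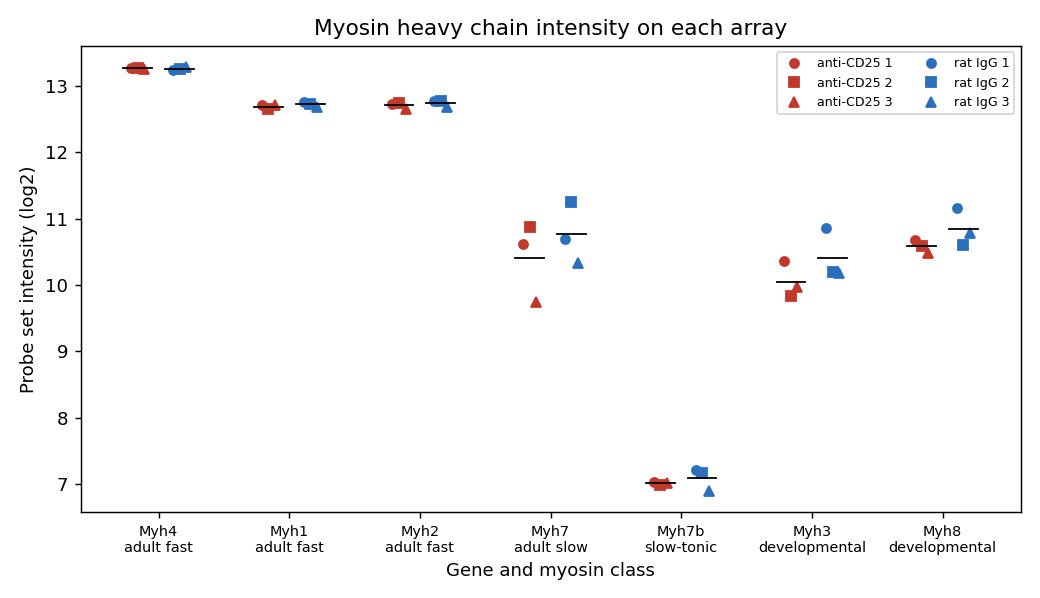
Log2 probe set intensity of the 7 myosin heavy chain genes on each array, with anti-CD25 in red and rat IgG in blue; marker shapes give the number in the sample title and black lines the mean of 3 arrays. The fast chains Myh4, Myh1 and Myh2 sit between 12.65 and 13.28 with almost no spread, while Myh7, Myh3 and Myh8 spread over 0.69 to 1.5 log2 units and overlap between the groups.

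The brightest members were the fast chains, on every array. Brightness depends on each probe set's own probes, so the order below ranks signals and not amounts of RNA. Myh4 was the brightest member on all 6 arrays, at ranks 22 to 24 among 19752 genes. Myh2 and Myh1 followed at ranks 58 to 71, with Myh2 above Myh1 on anti-CD25 1 and 2 and rat IgG 1 and 2, and Myh1 above Myh2 on anti-CD25 3 and rat IgG 3. These neighbours differed by less than their spread in each group. Places 4 to 6 were held by Myh8, Myh7 and Myh3, in an order that changed between arrays. Myh7 was the brightest of these on anti-CD25 2 and rat IgG 2, Myh8 on the other 4 arrays. Myh7 was the dimmest of the 3 on anti-CD25 3 and rat IgG 1. Myh7b came last on every array, at ranks 10115 to 10984; 53.6% of all genes were brighter on average.

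Myh4, the chain of type IIb fibres and the main one of most fast mouse muscles, measured 13.27, 13.27 and 13.25 on anti-CD25 1, 2 and 3, against 13.24, 13.25 and 13.28 on rat IgG 1, 2 and 3. All 6 values lay within 0.038 log2 units. The difference was 0.0051 (SE 0.073, 95% interval -0.16 to 0.17, adjusted p = 0.991, limma), and it turned to -0.0066 after a second quantile normalization. Myh1, the chain of type IIx fibres, measured 12.70, 12.65 and 12.70 with anti-CD25, against 12.76, 12.72 and 12.68 with rat IgG. The lowest value was anti-CD25 2 and the highest rat IgG 1, and the groups overlapped. Its difference was -0.034 (SE 0.075, 95% interval -0.21 to 0.14). Myh2, the chain of type IIa fibres, which are fast and oxidative, measured 12.73, 12.73 and 12.65 with anti-CD25, against 12.77, 12.77 and 12.67 with rat IgG. The lowest array of each group was the number 3, which is the array with low Xist. The difference was -0.033 (SE 0.078, 95% interval -0.21 to 0.14). These signals lie near the top of the arrays, whose brightest probe set was at 14.15 to 14.29, and whether bright probe sets understate differences was not tested. The letters of the probes were not used here, so whether a probe set also picks up RNA of related chains was not tested.

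Myh7, the slow chain of type I fibres and of the heart ventricle, varied most. It measured 10.61, 10.87 and 9.75 on anti-CD25 1, 2 and 3, against 10.70, 11.25 and 10.34 on rat IgG 1, 2 and 3. In each group the number 2 array was highest and the number 3 array lowest, and the groups overlapped. The means were 10.41 ± 0.59 with anti-CD25 and 10.76 ± 0.46 with rat IgG (SD, n = 3 each). The difference was -0.35 (SE 0.30, 95% interval -1.03 to 0.33, adjusted p = 0.803, limma). It was -0.018 with anti-CD25 3 left out, which leaves rat IgG 3 as the only array with low Xist. Leaving out rat IgG 2 gave -0.11, anti-CD25 2 gave -0.58, and rat IgG 3 gave -0.56. Split by Xist, the difference was -0.23 on the 4 high arrays and -0.59 on the low pair. It was -1.23 among the 3 arrays with the higher lower quartile and 0.41, of opposite sign, among the other 3.

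Partners of the slow chain include the light chains, troponins and calcium pump of type I fibres. The list was chosen by role with earlier results of these data known. Of 12 partners, 10 were lower and 2 higher, with a median of -0.13. Across all genes 58.9% were lower, with a median of -0.026. The adjusted test was passed by 0, and 2 had an unadjusted p under 0.05, both lower, against 3.98% of all genes in that direction. With anti-CD25 3 left out, 6 were lower and 6 higher, 0 had an unadjusted p under 0.05, and the median was -0.011. That fit leaves rat IgG 3 as the only array with low Xist. Among the 4 arrays with high Xist, 9 were lower and 3 higher, with a median of -0.086. There 2 had such a p, as did 4081 of all 19752 genes. With other arrays left out, the median was -0.016 (rat IgG 1 out, 8 lower and 4 higher), -0.069 (rat IgG 2 out) or -0.30 (rat IgG 3 out). In these fits 1, 0 and 5 partners had such a p, and 1321, 663 and 3030 of all genes did. Myl6b, a light chain of slow and embryonic fibres, measured 8.93, 8.72 and 8.44 with anti-CD25 and 8.97, 9.14 and 9.04 with rat IgG, without overlap. Non-overlap in the lower direction was found in 7.46% of all genes. The difference for Myl6b was -0.36 (SE 0.12, adjusted p = 0.750, limma), and -0.23 without anti-CD25 3. Tnni1, the slow inhibitory troponin, differed by -0.32 (SE 0.13) and Tnnc1, the slow calcium-binding troponin, by -0.39 (SE 0.22). Tnnc1 was -0.15 without anti-CD25 3, and Tnni1 was -0.18. Tpm3, the slow tropomyosin, differed by 0.12 (SE 0.10). Over the 6 arrays the partners' Pearson r with Myh7 had a median of 0.78, from -0.66 to 0.96, and 6 of 12 were above 0.8. For the fast fibre partners and the regenerating fibre genes described below, the median r with Myh7 was 0.48 and 0.10. These arrays share their normalization, and r over 6 arrays is given as a description.

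**Figure D2:**
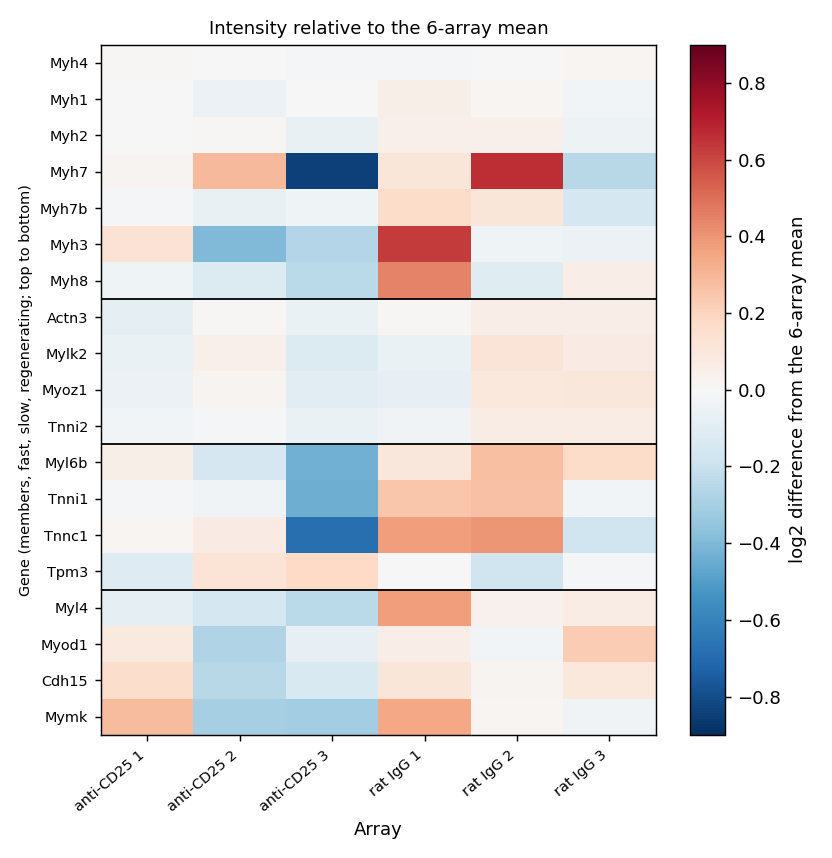
Log2 intensity of each gene relative to its own mean over the 6 arrays, for the 7 members and, below each black line, the 4 genes with the largest statistics of the fast fibre, slow fibre and regenerating fibre lists; red is above and blue below the mean. Myh7 is lowest on anti-CD25 3 with Tnnc1, Tnni1 and Myl6b, and Myh3 and Myh8 are highest on rat IgG 1 with Myl4.

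Of the developmental chains, Myh3 had the largest difference of the 7 members by size, just ahead of Myh7, and Myh8 came after these. Both were brightest on rat IgG 1. In whole muscle, fewer fibres that make a chain and less of its RNA per fibre cannot be told apart. Myh3, the embryonic chain, measured 10.36, 9.83 and 9.96 on anti-CD25 1, 2 and 3, against 10.86, 10.19 and 10.17 on rat IgG 1, 2 and 3. Rat IgG 1 stood highest, and anti-CD25 1 lay above rat IgG 2 and 3, so the groups overlapped. The means were 10.05 ± 0.28 with anti-CD25 and 10.41 ± 0.39 with rat IgG (SD, n = 3 each). The difference of -0.36 (SE 0.20, 95% interval -0.81 to 0.096) had an adjusted p = 0.750 (limma) and was -0.13 without rat IgG 1. Split by Xist, it was -0.43 on the 4 high arrays and -0.21 on the low pair, and it was -0.56 and -0.078 among the 3 arrays with the higher and the 3 with the lower quartile of intensity.

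Myh8, the neonatal or perinatal chain that follows Myh3 in development, measured 10.67, 10.59 and 10.47 on anti-CD25 1, 2 and 3, against 11.16, 10.60 and 10.78 on rat IgG 1, 2 and 3. Its anti-CD25 arrays lay close together, and only anti-CD25 1 reached above the lowest rat IgG array. The means were 10.58 ± 0.10 with anti-CD25 and 10.85 ± 0.29 with rat IgG (SD, n = 3 each). The difference of -0.27 (SE 0.14, 95% interval -0.58 to 0.047) had an adjusted p = 0.750 (limma) and was -0.11 without rat IgG 1. Split by Xist, it was -0.25 on the 4 high arrays and -0.30 on the low pair, and it was -0.41 and -0.14 on the arrays with the higher and the lower quartile. Myh3 and Myh8 varied together over the 6 arrays (Pearson r 0.90, Spearman rho 0.77, and r 0.65 without the 2 arrays farthest from the Myh3 median), while Myh7 varied with neither (r 0.19 with Myh3 and 0.21 with Myh8). Such values were not particular to this pair. Myh2 and Myh7 had r 0.89 and rho 0.83, and Myh1 and Myh3 had r 0.86 and rho 0.71. Without the 2 arrays farthest from the Myh2 or Myh1 median, r was 0.50 and 0.020. Within each array, the mean of Myh3 and Myh8 relative to the mean of Myh1, Myh2 and Myh4 differed by -0.29 between the groups (pooled SD 0.25), and by -0.11 without rat IgG 1.

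**Figure D3:**
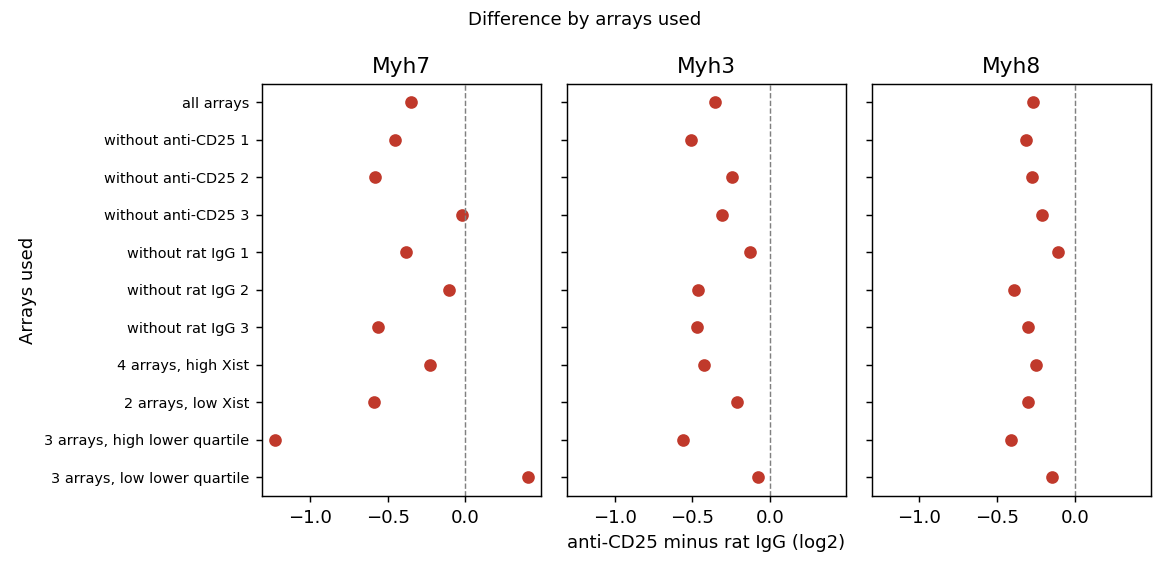
Difference between anti-CD25 and rat IgG in log2 intensity for Myh7, Myh3 and Myh8, with all 6 arrays, with each array left out, and within the divisions by Xist level and by lower quartile of intensity; the dashed line marks no difference. Myh7 runs from -1.23 to 0.41, whereas each value of Myh3 and Myh8 lies below 0.

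The list of regenerating fibre genes holds light chains, receptors and factors of new fibres and myoblasts. Of 16 measured, 12 were lower and 4 higher, with a median of -0.11, and 0 passed the adjusted test. The median shrank to -0.017 with rat IgG 1 left out and to -0.057 with anti-CD25 2 left out, and was -0.19 when anti-CD25 1 was left out. Myl4, the embryonic and atrial light chain that pairs with embryonic myosin, measured 12.23, 12.15 and 12.07 with anti-CD25 and 12.68, 12.35 and 12.38 with rat IgG, without overlap. Its difference of -0.32 (SE 0.11, adjusted p = 0.750, limma) was -0.21 without rat IgG 1. Of the 16 genes 1, Myl4, had an unadjusted p under 0.05, where 3.98% of all genes did in the lower direction. Without rat IgG 1, 9 of the 16 were lower and 7 higher, and 0 had such a p. Mymk, the membrane protein that lets myoblasts fuse, differed by -0.22 (SE 0.17), Myod1, a transcription factor of myoblasts, by -0.17 (SE 0.11), and Cdh15, the cadherin of satellite cells, by -0.15 (SE 0.11). Over the alternatives, Mymk ran from -0.42 without anti-CD25 1 to -0.10 without rat IgG 1. Leaving out anti-CD25 1 gave -0.26 for Myod1 and -0.27 for Cdh15, and leaving out anti-CD25 2 gave -0.078 and -0.067. Pearson r with Myh3 had a median of 0.70 over the 16 genes, from -0.71 to 0.97, and 6 were above 0.8. The median r with Myh3 was 0.51 for the slow fibre partners and -0.26 for the fast fibre partners. Of the macrophage markers, 11 of 11 were higher in value with anti-CD25, with a median of 0.30. Across all genes 58.9% were lower, and among genes brighter than the median gene 45.9% were. Of these markers, 0 passed the adjusted test and 5 had an unadjusted p under 0.05, against 2.3% of all genes in that direction. With anti-CD25 1, anti-CD25 3 or rat IgG 2 left out, 2 had such a p. Leaving out anti-CD25 2 or rat IgG 3 gave 7. The groups did not overlap for 2 markers, as in 4.28% of all genes in the higher direction. The markers' mean relative to the 6-array mean was -0.026 to 0.34 with anti-CD25 and -0.40 to 0.016 with rat IgG. The part of macrophage content in the myosin values was not tested.

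**Figure D4:**
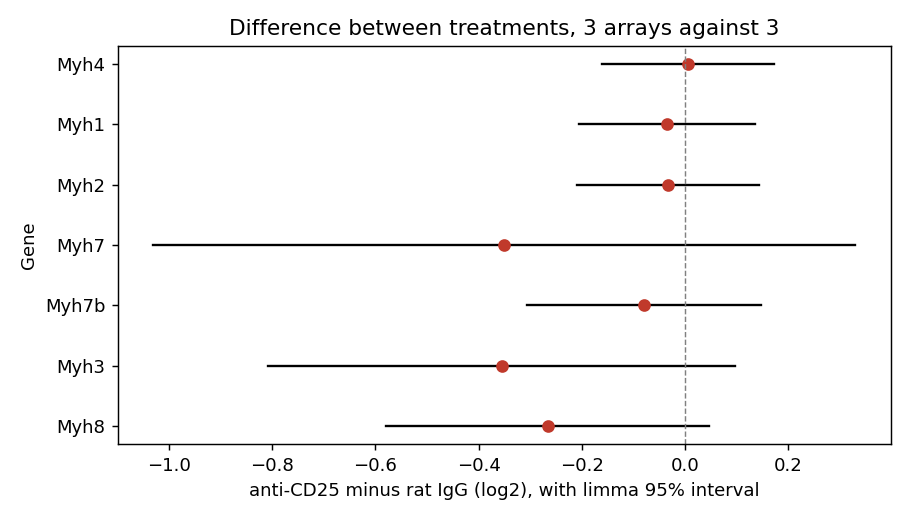
Difference between anti-CD25 and rat IgG in log2 intensity for each member, with limma's moderated 95% interval from 3 arrays against 3; the dashed line marks no difference. All 7 intervals cross 0, those of the fast chains lie within -0.21 and 0.17, and that of Myh7 reaches from -1.03 to 0.33.

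Myh7b, a slow-tonic chain found in muscle spindles and eye muscles, was dim. It measured 7.04, 6.99 and 7.01 on anti-CD25 1, 2 and 3, against 7.22, 7.16 and 6.90 on rat IgG 1, 2 and 3. The anti-CD25 arrays lay between rat IgG 3, the lowest, and the other rat IgG arrays. The difference was -0.080 (SE 0.099, 95% interval -0.31 to 0.15, adjusted p = 0.866, limma), and it was -0.18 with rat IgG 3 left out, -0.045 with rat IgG 2 out and -0.016 with rat IgG 1 out. Beside Myh7b itself, the list of muscle spindle and eye muscle markers holds Egr3, which differed by -0.29, Myh6 by -0.061 and Myh13 by 0.060. Introns of Myh7b and Myh7 carry the muscle microRNAs miR-499 and miR-208b, shown here from RefSeq (GRCm38.p6) with the seed, bases 2 to 8, in capitals, since 6 of the 7 seed bases are the same.
miR-499-5p, chr2:155622893-155622913, plus strand: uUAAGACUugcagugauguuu
miR-208b-3p, chr14:54975710-54975731, minus strand: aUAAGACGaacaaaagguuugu

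The probe set of the Mir499 precursor gene, looked up after the other values were seen, lay at 4.68, 4.70 and 4.55 with anti-CD25 and at 4.65, 4.79 and 5.15 with rat IgG. The groups overlapped. The probe set of Mir208a, looked up with it and known as the microRNA gene within Myh6, lay at 3.87, 4.01 and 4.14 with anti-CD25 and at 4.23, 4.39 and 4.36 with rat IgG, without overlap. Its difference of -0.32 (SE 0.096) had an adjusted p = 0.750 (limma). All these levels are below the lower quartile of every array, and such probe sets do not measure the mature arm.

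Among genes whose products work with the heavy chains, fast fibre partners differed little. Of 14, 9 were lower and 5 higher, with a median of -0.012, and 0 passed. The median turned to 0.0021 among the 4 arrays with high Xist, and median centring gave 7 higher and 7 lower. A second quantile normalization gave 2 higher and 12 lower (median -0.032). Leaving out rat IgG 1 or anti-CD25 2 gave 3 higher and 11 lower (medians -0.036 and -0.035). The largest statistics were those of Actn3, the alpha-actinin of fast fibres, at -0.086 (SE 0.076), Mylk2, the kinase of the regulatory light chain, at -0.090 (SE 0.088), Myoz1 at -0.082 and the fast troponin Tnni2 at -0.070. Of 12 measured genes of the thick filament and of myosin folding, 11 were lower, with a median of -0.064, and 0 passed. Across all genes 58.9% were lower, and among genes brighter than the median gene 45.9% were. Leaving out anti-CD25 1 gave 7 lower and 5 higher (median -0.024), and leaving out rat IgG 1 gave 8 lower and 4 higher. The median was -0.11 without anti-CD25 2. Myom3, a protein of the M-band, differed by -0.18 (SE 0.088), Unc45b, the chaperone that folds the myosin head, by -0.16 (SE 0.093), and Trim55 and Trim54, ubiquitin ligases of the sarcomere, by -0.13 and -0.098.

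Regulators of myosin isoforms were lower in 16 of 18 cases, with a median of -0.11 that ran from -0.14 to -0.067 over the alternatives, and 0 passed. Across all genes 58.9% were lower, and among genes brighter than the median gene 45.9% were. Ppargc1a, the coactivator of oxidative and slow fibre genes, was the exception with the largest difference of the list. It measured 9.65, 9.90 and 9.94 on anti-CD25 1, 2 and 3, against 9.32, 9.48 and 9.26 on rat IgG 1, 2 and 3. All anti-CD25 arrays lay above all rat IgG arrays, as in 4.28% of all genes. In the other direction, 5 of the 18 regulators, Eya1 among them, did not overlap, against 7.46% of all genes. In that direction 0 of the 18 had an unadjusted p under 0.05, where 3.98% of all genes did. The Ppargc1a difference of 0.48 (SE 0.10, 95% interval 0.24 to 0.71) did not pass, with an adjusted p = 0.750 (limma), and ran from 0.38 to 0.57 over the alternatives. Mef2d, a myocyte enhancer factor, differed by -0.20 (SE 0.097), Eya1, a transcriptional cofactor that favours fast fibres, by -0.18 (SE 0.093), and the splicing factor Rbfox1 by -0.18 (SE 0.096).

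The list of other class II heavy chains covers heart, smooth muscle, nonmuscle and eye muscle myosins. Of 7, 4 were higher and 3 lower, with a median of 0.032 that turned to -0.038 among the 4 arrays with high Xist and to -0.064 without rat IgG 3. The smooth muscle chain Myh11 differed by 0.16 (SE 0.11), and the nonmuscle chains Myh9, Myh10 and Myh14 by 0.090, 0.032 and -0.12. Myh13, the chain of eye muscles that follows Myh8 in the cluster, differed by 0.060, and the heart atrial chain Myh6, the neighbour of Myh7, by -0.061. Myh15 was dim, at 4.45 with anti-CD25 and 4.46 with rat IgG, and differed by -0.0087. The signs for Myh6, Myh10, Myh13 and Myh15 turned under some alternatives.

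Among 1192 brighter genes that spanned at least 0.5 log2 units, those whose pattern over the 6 arrays was most like Myh7 were Cuedc1 (Pearson r 0.99, Spearman rho 1), Ldhb, the lactate dehydrogenase subunit of oxidative tissue (r 0.99, rho 1), and Reep6 (r 0.99, rho 0.94). Without the 2 arrays farthest from the Myh7 median, r was 0.97, 0.95 and 0.90. Most like Myh3 were Kcnn3, a calcium-activated potassium channel (r 0.96, rho 0.89), the troponin Tnnt2 of heart and embryonic muscle (r 0.96, rho 0.94), and Chrng, the fetal subunit of the acetylcholine receptor (r 0.95, rho 0.94), with r of 0.95, 0.84 and 0.81 without the 2 farthest arrays. Most like Myh8 were the imprinted gene Peg10 (r 0.98, rho 0.83), Myl4 (r 0.95, rho 0.94) and Armcx1 (r 0.95, rho 0.60). Without the 2 farthest arrays r was 0.91 for Peg10, 0.59 for Myl4 and 0.12 for Armcx1, so the last rested on those arrays. The other 4 members spanned under 0.5 log2 units and were not matched in this way. The named genes were picked as the highest r among 1192 over 6 arrays. How high such values run without any relation was not tested.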

How the data were processed

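Muscle RNA of 6 samples was measured on Affymetrix whole-transcript arrays, 1 each, after biotin labelling, per the labels' protocols. The authors deposited 1 intensity per probe set and array, for 24922 probe sets; per the submitters' processing notes these come from RMA in Affymetrix Power Tools, in versions those notes do not state. The values are on a linear scale, so log2 was taken with no pseudocount. Of the rows, 21425 had 1 gene symbol in the platform's annotation, and the brightest probe set stood for each of 19752 genes. RMA draws dim probe sets together, which understates their differences.

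Groups came from the sample titles. Each gene was fitted with limma 3.58.1 in R 4.3.3 (lmFit and eBayes, two-sided, group only), adjusted by Benjamini-Hochberg over all genes. The members, the 6 lists (79 of 83 entries measured) and the alternatives were chosen with earlier results of these data known. The text names all members, the 4 genes of each list with the largest statistic (every other class II chain) and the label-check genes. It also names the 3 genes most like each member spanning at least 0.5 log2 units. Of the marker genes it names those of fibre, heart, and spindle and eye muscle. Macrophage and handling markers are given as sets, and the adipocyte, Schwann cell and fibroblast markers are not described. The fit was also run on simulated data with changes larger than any member difference here and without the Xist and lower quartile divisions. That run does not bear on differences of the size reported. The number of arrays limits precision. Alternatives were a second quantile normalization, median centring, blocks for title number, Xist level and lower quartile, the 4 arrays with high Xist alone, each array left out, genes above the 30th percentile, the mean of all probe sets, an intensity trend, treat and a threshold of 0.1.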

Additional observations from a re-analysis of the deposited data

Results flagged for a closer look

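Myh4, Myh1 and Myh7b differed one way among the 4 arrays with high Xist, where both anti-CD25 arrays lay on the same side of both rat IgG arrays, and the other way between the pair with low Xist. The differences were 0.020 and -0.025 for Myh4, -0.063 and 0.022 for Myh1, and -0.18 and 0.12 for Myh7b. The difference between the divisions was not tested, the second division holds 1 array per group, and 33.1% of all genes showed such a pattern. In the high-Xist division the lower quartile of intensity was 51.4 to 51.9 with anti-CD25 and 57.6 to 57.7 with rat IgG, and in the low-Xist pair it was 56.5 with anti-CD25 and 51.2 with rat IgG; its part in the pattern was not tested.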

How the results depend on the processing

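Of 105 values of the 7 members over the alternatives, 35 could not move, since the intensity trend, the filter, the mean of probe sets and the balanced blocks leave the differences as they are. Of the other 70, 67 kept their sign and 3 turned, and 0 of the 105 had an adjusted p under 0.05. The 3 turns were all of Myh4, to -0.0066 after a second quantile normalization, -0.0025 with the level of the lower quartile as a block (added after seeing the data) and -0.0034 without rat IgG 1. With 1 array left out, differences ran from -0.0034 to 0.016 for Myh4, -0.054 to -0.016 for Myh1, -0.064 to -0.0070 for Myh2, -0.58 to -0.018 for Myh7, -0.18 to -0.016 for Myh7b, -0.51 to -0.13 for Myh3 and -0.39 to -0.11 for Myh8. Genes called over the whole array numbered 0 in all fits but the fit without rat IgG 3, which called 7, none a member. Whether the numbers in the titles pair the samples is not known. Same-numbered arrays correlated at 0.030, -0.0067 and -0.17 in their deviations from the group means, and differently numbered ones at -0.20 to 0.15. With 3 arrays per group these values cannot decide it, and both number 3 arrays were those with low Xist. With the number as a replicate block, which in this balanced design changes only the error and not the difference, 0 genes passed, and the unadjusted p was 0.0094 for Myh3 (difference -0.36) and 0.020 for Myh7 (difference -0.35), with adjusted p = 0.826 and 0.852 (limma). Dim signals limit what can be read of Myh7b.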
